A study of Macaca mulatta with 161 samples.

Results

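The genes described here are 7 transcription factors of the trophectoderm, the outer cell layer of the blastocyst, measured in single inner cells of rhesus monkey blastocysts: CDX2, GATA2, GATA3, TFAP2A, TFAP2C, HAND1 and DLX3. They were chosen by symbol, all 7 have a row among the 16049 genes of the table, and each was followed in all 161 cells by stage and against the levels of NANOG and SOX17. Rhesus oocytes from hormone-stimulated females were fertilised and cultured to 4 stages. These were the early blastocyst (44 cells, at about embryonic day 5 with a small cavity), the middle blastocyst (about day 5.5, 39 cells), the late blastocyst (about day 6, fully expanded, 52 cells) and the hatching blastocyst (about day 7, 26 cells). Outer cells were stained with the membrane dye PKH26, the blastocyst was taken apart with trypsin, and cells without fluorescence were picked as inner cells. No group was genetically changed or treated with a drug. Which embryo or animal gave a cell is not in the labels. Each stage therefore counts as 1 sample, cells do not serve as replicates, and the SD values given here are spreads between cells.

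The blastocyst forms from a first split between outer trophectoderm, which builds the placenta, and the inner cell mass, which then divides into epiblast and primitive endoderm. In the mouse, outer position switches on Cdx2 and Gata3 through the TEAD4 factor and its partner YAP, and the inner cells lose Cdx2. NANOG marks the epiblast and SOX17 the primitive endoderm. GATA2, GATA3, TFAP2A and TFAP2C are known as a group of factors that establish trophoblast identity in human cells, and TFAP2C is also expressed in naive pluripotent cells.

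Levels are FPKM (reads of a gene relative to its transcript length and to the mapped total of its cell), with means and differences on the log2(FPKM + 1) scale. A gene was counted as detected in a cell at FPKM of at least 1. Whole reads could be recovered from the steps of the FPKM values, with a median of 11.2 M (mega) reads per cell (range 2.97 to 18.9 M), and stage medians lay between 10.48 and 12.1 M. For CDX2, 1 read was worth a median of 0.0360 FPKM, so that a value of 1 FPKM stands for well over 10 reads in most cells. POU5F1, a pluripotency factor of the inner cell mass, was detected in all 161 cells. The keratins KRT8 and KRT18, which are abundant in trophectoderm, were detected in all 161 cells too, so their detection singled out no cell. Of the 11 trophectoderm markers outside the 7 factors, 4 were detected in at least 50% of early cells, 5 in middle, 6 in late and 6 in hatching cells, and CCR7 was at 0 in all early, late and hatching cells.

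1 late cell, with title number 13, stood apart from the others. Its summed level of these 11 markers was 30880 FPKM, against 12510 in the next cell of the series, and it had the fewest recovered reads (2.97 M). KRT18 was at 19894 FPKM and KRT8 at 8030 FPKM in it, the highest of the late cells. All 7 factors were detected in it, and CDX2 (309 FPKM), GATA2 (383 FPKM) and GATA3 (160 FPKM) were at their highest late values. NANOG was low (4.40 FPKM) and SOX17 just above detection (1.74 FPKM). Without it CDX2 was detected in 29 of 51 late cells with a maximum of 188 FPKM, TFAP2C in 24, GATA3 in 10 (maximum 52.6 FPKM), TFAP2A and DLX3 in 9 each and HAND1 in 3.

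CDX2, the homeobox factor that maintains the trophectoderm in the mouse embryo, was the most widely detected of the 7. In early cells it ranged from 0.202 to 208 FPKM with a median of 50.4, and was detected in 43 of 44 cells (97.7%, exact 95% interval 88.0 to 99.9%). Middle cells ranged from 0.305 to 171 FPKM with a median of 30.5, and 37 of 39 had it. Nearly every inner cell of the first 2 stages thus held CDX2 RNA together with NANOG, since NANOG was detected in all 44 early and all 39 middle cells. Late cells ranged from 0.0292 to 309 FPKM with a median of 14.8, and 30 of 52 were positive (57.7%, 43.2 to 71.3%). Hatching cells ranged from 0.0307 to 434 FPKM with a median of 5.00, and 13 of 26 were positive (50.0%, 29.9 to 70.1%). All stages overlapped, and the highest single value of the series was in a hatching cell. Recovered reads showed a split rather than a slope. CDX2 had at least 1 read in every one of the 161 cells, but the 22 late and 13 hatching cells below detection held at most 16 and 12 reads, whereas the detected late and hatching cells held at least 103 and 213. Among detected cells alone, the median was 52.8 FPKM in early and 81.1 FPKM in hatching cells. With fewer positive cells but no lower a level in them, the log2 of the mean FPKM over all cells differed by -0.07 between hatching and early cells.

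DLX3, a homeobox factor needed for placental development in the mouse, was nearly as widespread in early cells and found in few later ones. Early cells ranged from 0 to 397 FPKM (median 35.8), with detection in 39 of 44 cells (88.6%, 75.4 to 96.2%). Middle cells ranged from 0 to 75.4 FPKM (median 13.5), with 26 of 39 positive (66.7%, 49.8 to 80.9%). At the late stage 10 of 52 cells were positive (19.2%, 9.63 to 32.5%), with a median of 0.0376 FPKM and a maximum of 82.4. The hatching stage had 4 of 26 positive cells (15.4%, 4.36 to 34.9%), all between detection and 17.6 FPKM. The ranges overlapped through these few positive cells. Of the 7 factors, DLX3 had the largest difference in mean level between early and hatching cells.

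**Figure D1:**
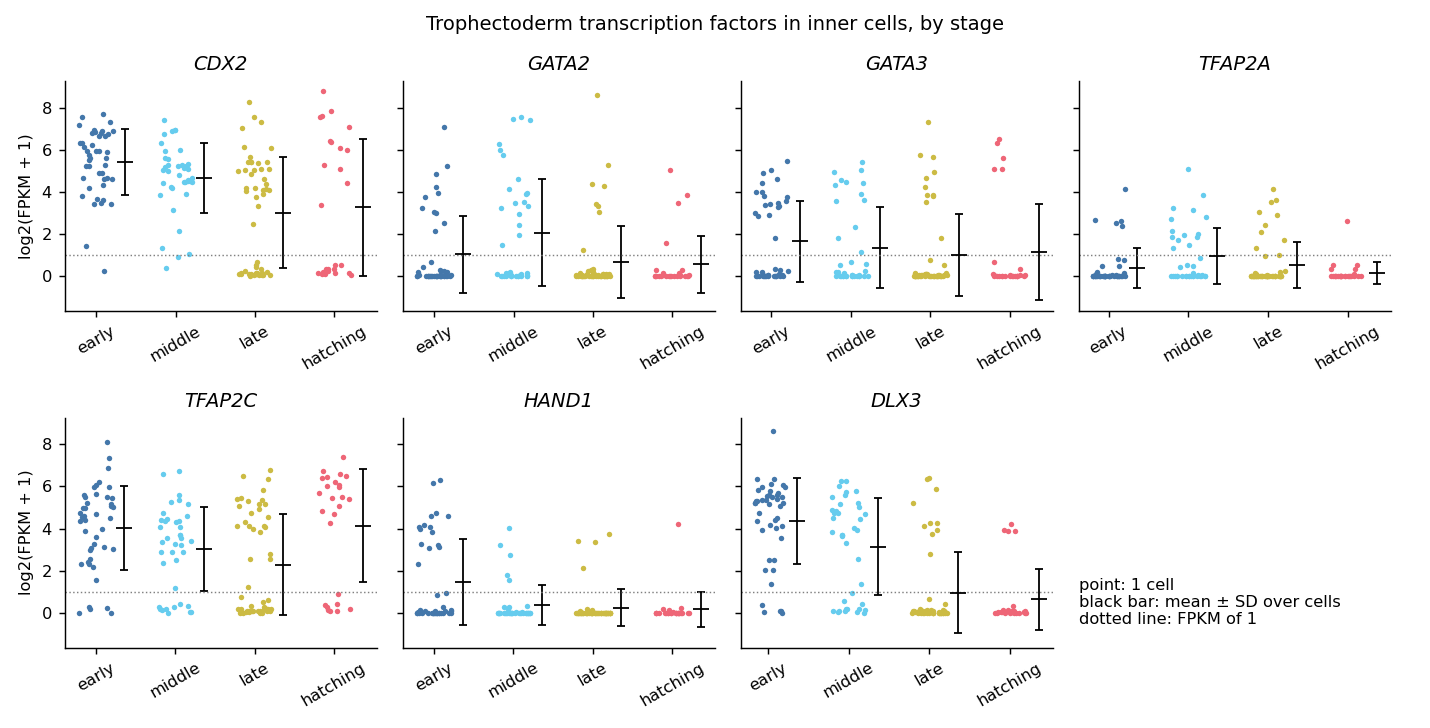
Level of each of the 7 factors by stage, as log2(FPKM + 1) on the vertical axis; each point is 1 cell, the black bar is the mean ± SD over cells and the dotted line marks an FPKM of 1. CDX2 is above the line in 43 of 44 early cells and 13 of 26 hatching cells, DLX3 in 39 of 44 and 4 of 26, and the other factors are split between cells at every stage.

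TFAP2C, the AP-2 factor shared by trophoblast and naive pluripotent cells, was the only 1 of the 7 whose highest mean was at hatching. Its early range was 0 to 271 FPKM (median 21.9, 39 of 44 cells positive), and its middle range 0 to 106 FPKM (median 9.60, 29 of 39 positive). Late cells ranged from 0 to 108 FPKM with a median of 0.629, and 25 of 52 were positive (48.1%, 34.01 to 62.4%). Hatching cells ranged from 0.0579 to 165 FPKM with a median of 42.3, and 18 of 26 were positive (69.2%, 48.2 to 85.7%). No hatching cell lay between 1 and 5 FPKM, so the stage consisted of cells with TFAP2C and cells without it. TFAP2A, its AP-2 relative, had a median below 1 FPKM at every stage and was found most often in middle cells. It was detected in 5 of 44 early, 14 of 39 middle, 10 of 52 late and 1 of 26 hatching cells, and never exceeded 32.9 FPKM.

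GATA3, the zinc-finger factor that acts beside CDX2 in trophectoderm, was found in a minority of cells at each stage. It reached 43.2 FPKM in early cells (median 0.178, 19 of 44 positive), 42.4 in middle cells (median 0.123, 13 of 39), 160 in late cells (median 0.0306, 11 of 52) and 89.4 in hatching cells (median 0.00827, 5 of 26). Positive hatching cells were fewer but higher, with a median of 47.1 FPKM among them against 10.9 FPKM among the positive early cells. GATA2, its relative in trophoblast and blood, was found most often in the middle stage. It was detected in 11 of 44 early cells (maximum 133 FPKM), 18 of 39 middle cells (maximum 187 FPKM), 8 of 52 late cells (maximum 383 FPKM, the cell that stands apart) and 4 of 26 hatching cells (maximum 31.5 FPKM). Without that late cell, 7 of 51 late cells had GATA2, with a maximum of 38.3 FPKM. Of the endothelial and blood genes, with which GATA2 is shared, CDH5 was detected in 20 of 44 early, 19 of 39 middle, 22 of 52 late and 7 of 26 hatching cells, and RUNX1 in 18, 10, 24 and 1. KDR was below detection in all early, middle and late cells, and TAL1 was detected in 2 middle cells. Their part in the GATA2 levels was not tested. Median levels were below 1 FPKM at each stage for both GATA factors, which overlapped between all stages.

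HAND1, a basic helix-loop-helix factor of trophoblast and extraembryonic mesoderm, was found most often in early cells, though not in both title-number ranges. It was detected in 15 of 44 early cells (34.1%, 20.5 to 49.9%), with a maximum of 78.1 FPKM. In later stages it was detected in 5 of 39 middle, 4 of 52 late and 1 of 26 hatching cells, with maxima of 15.5, 12.7 and 17.6 FPKM. Among cells with title numbers of at most 28 (early) or 29 (middle), it was detected in 5 of 25 at each stage. Among those with higher numbers it was detected in 10 of 19 early and 0 of 12 middle cells. Within the early stage, HAND1 level and recovered reads had a Spearman rho of 0.48 over 44 cells that share 1 stage, a description only. The part of depth in that early signal was not tested.

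Between stages, a gene was counted as different where its mean log2(FPKM + 1) differed by more than 1 unit, with no test because each stage is 1 sample. The background is the share of all 9781 genes with a mean FPKM of at least 1 that passed the same limit, and all 7 factors passed that filter. From early to hatching cells, 3 of 7 factors were lower and 0 higher, against a background of 16.2% lower and 11.3% higher. DLX3 went from 4.37 ± 2.02 (SD between 44 cells) to 0.66 ± 1.45 (26 cells), a difference of -3.70. CDX2 went from 5.41 ± 1.57 to 3.28 ± 3.25 (difference -2.13), and HAND1 from 1.46 ± 2.03 to 0.19 ± 0.82 (difference -1.28). The CDX2 and HAND1 differences did not exceed the larger SD of their stages, and the DLX3 difference did. The median difference was -0.51 over the 7 factors and -0.12 over all genes. The other 4 differed by less than 1 unit, from -0.51 for GATA3 to +0.11 for TFAP2C.

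The steps between neighbouring stages placed these differences. From early to middle cells, GATA2 was higher by 1.03 (background 3.06% higher), while DLX3 and HAND1 were lower, with differences of -1.22 and -1.09 (background 3.61% lower). From middle to late cells 3 of 7 were lower against a background of 5.82%, and 0 were higher against 3.95%. These were DLX3 (difference -2.18), CDX2 (-1.66) and GATA2 (-1.38). From late to hatching cells, TFAP2C alone passed the limit, with a difference of +1.85 (background 7.26% higher), and 0 of 7 were lower (background 9.87%). TFAP2C had late and hatching means of 2.53 and 2.74 in lower title numbers (at most 22 and 18), and 2.28 and 5.35 in higher ones. Over that step CDX2 and GATA3 each differed by more than 1 unit upward in the lower and downward in the higher numbers. Every one of these steps between whole stages was smaller than the larger SD between cells of the 2 stages. In the order of stages of each factor, no neighbours differed by more than that SD. Within a stage the factors were ordered by level. FPKM corrects for length but not for differences between genes in the amplification of their cDNA, so this order is a description. CDX2, DLX3 and TFAP2C led in early and middle cells, and the gap of 2.38 between TFAP2C and GATA3 in early cells was the only gap between neighbours in that order above the larger SD. TFAP2C and CDX2 led in hatching cells, where HAND1 and TFAP2A came last.

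Counting factors per cell gave the same division between the first and last stages. Early cells held a mean of 3.89 ± 1.19 of the 7 factors and middle cells 3.64 ± 1.39, with at least 2 in every cell. Late cells held 1.88 ± 1.28 and hatching cells 1.77 ± 1.11. At least 4 factors were present in 27 of 44 early, 16 of 39 middle, 4 of 52 late and 1 of 26 hatching cells. The usual set of an early cell was CDX2, TFAP2C and DLX3 together, found in 34 of 44 early and 20 of 39 middle cells but in 4 of 52 late and 3 of 26 hatching cells. All 7 factors were found in 3 cells, with title number 43 in the early, 20 in the middle and 13 in the late stage. No factor at all was found in 6 late and 2 hatching cells.

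**Figure D2:**
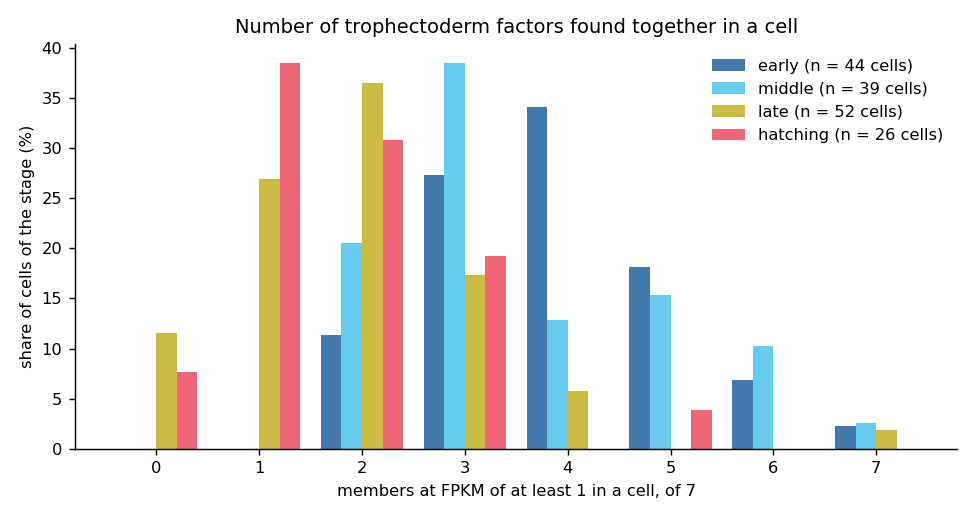
Share of the cells of each stage (vertical axis, %) that hold a given number of the 7 factors at FPKM of at least 1 (horizontal axis); bars start at 0. Early and middle cells hold at least 2 factors, while late and hatching cells centre on 1 and 2 and include 6 and 2 cells with none.

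Some factors were high in the same cells. In the middle stage, GATA2 had a Spearman rho of 0.51 with TFAP2A and 0.46 with GATA3, and GATA3 had 0.46 with HAND1. These 4 factors also followed the mean level of the 11 trophectoderm markers in middle cells, with rho of 0.64 for GATA3, 0.53 for HAND1, 0.50 for TFAP2A and 0.44 for GATA2. CDX2 and DLX3 did not in these cells (rho -0.20 and -0.02), while in the 26 hatching cells CDX2 had a rho of 0.47 with the marker mean. In late cells, GATA2 and GATA3 had a rho of 0.57, and the largest rho of a member with the marker mean was 0.36, for TFAP2C. The points are cells of 1 stage (39 middle, 52 late and 26 hatching) that may share embryos and that share the many values at or near 0, so these figures are descriptions. The marker mean itself was 3.23 ± 0.42 in early, 3.46 ± 0.65 in middle, 3.59 ± 0.62 in late and 3.85 ± 0.52 in hatching cells. The median of the summed FPKM of the same markers had another order, at 3293, 4004, 3970 and 3195 FPKM.

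NANOG and SOX17 divided the cells only from the late stage on. With cuts at an FPKM of 64 for NANOG and 1 for SOX17, 24 late cells were NANOG-high SOX17-, 21 were NANOG-low SOX17+ and 7 were NANOG-high SOX17+. The hatching stage had 17, 7 and 2 such cells. Early cells were mostly NANOG-high SOX17- (35 of 44), with 6 NANOG-high SOX17+ and 3 NANOG-low SOX17- cells, and the middle stage had 28, 10 and 1. These are ranges cut from 2 levels, not cell types. Within a factor of 2 of the NANOG cut lay 12 early, 11 middle, 3 late and 0 hatching cells, and within that factor of the SOX17 cut 1, 1, 5 and 2. The NANOG cut thus passes through a continuum in the early and middle stages and through a gap at hatching. In the late stage few cells lie near it, the closest below at 63.0 FPKM. Of the genes fixed as markers, 12 of 13 primitive endoderm genes were higher in late NANOG-low SOX17+ than in NANOG-high SOX17- cells (background 8.97%). In the same comparison 11 of 12 epiblast genes were lower (background 9.83%). SOX17 is in the endoderm list and NANOG in the epiblast list, so the differences of these 2 genes follow from the cuts.

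**Figure D3:**
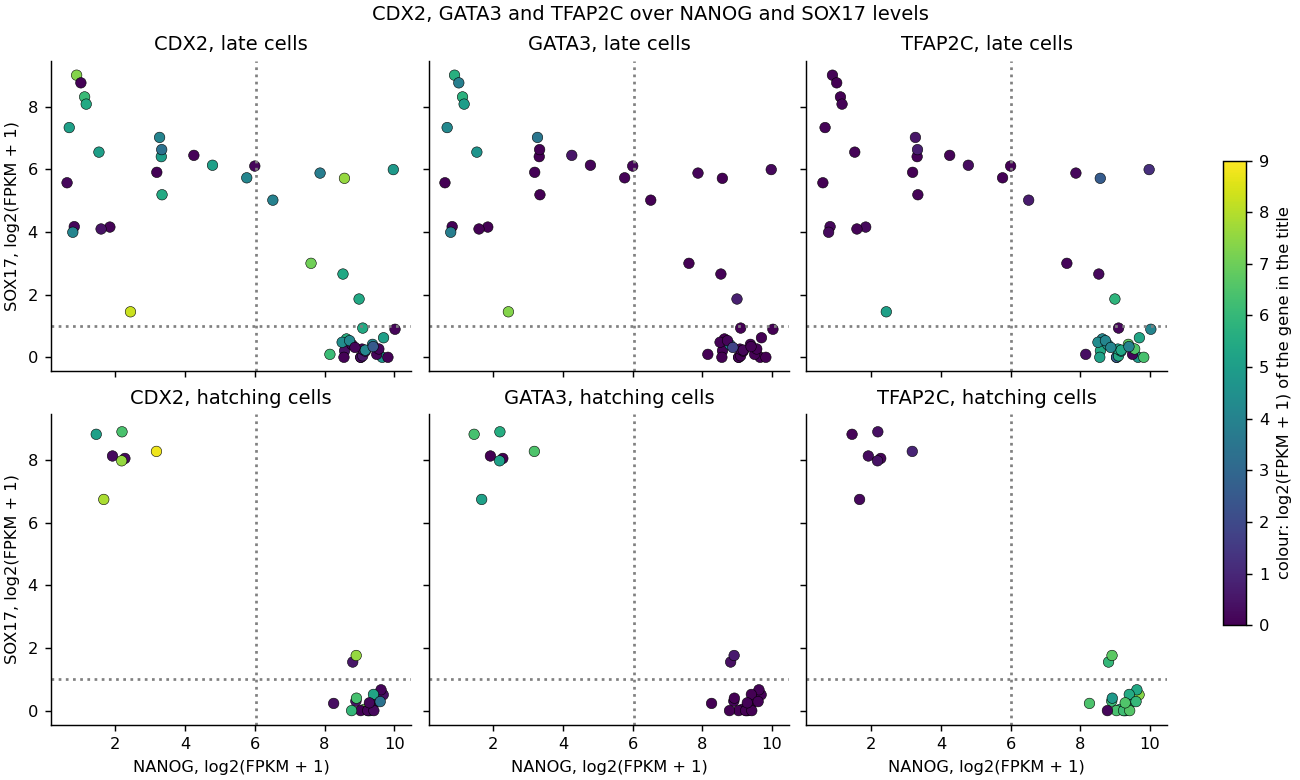
Late (upper row) and hatching (lower row) cells placed by NANOG (horizontal) and SOX17 (vertical), both as log2(FPKM + 1), and coloured by the level of CDX2, GATA3 or TFAP2C; dotted lines are the cuts at FPKM 64 and 1, and each point is 1 cell. TFAP2C is bright at the lower right (21 of 24 late and 16 of 17 hatching NANOG-high SOX17- cells), GATA3 at the upper left, and CDX2 on both sides.

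TFAP2C lay almost entirely on the NANOG side, but not in all cells there. In NANOG-high SOX17+ cells it was detected in 3 of 7 late (median 0.559 FPKM) and 2 of 2 hatching cells. In late NANOG-high SOX17- cells it ranged from 0.0835 to 108 FPKM (median 20.9) and was detected in 21 of 24 cells (87.5%, 67.6 to 97.3%). In late NANOG-low SOX17+ cells the median was 0.0625 FPKM, and it was detected in 1 of 21 cells. That cell is the one that stands apart, and without it TFAP2C was detected in 0 of 20 cells, which allows a share of up to 16.8%. The hatching stage repeated the division, with 16 of 17 NANOG-high SOX17- cells positive (0.106 to 165 FPKM, median 50.7) and 0 of 7 NANOG-low SOX17+ cells positive (0.0579 to 0.882 FPKM, upper limit 40.96%). The hatching ranges overlapped through 1 NANOG-high SOX17- cell without TFAP2C. The NANOG-low SOX17+ cells had fewer reads (median 9.09 against 12.95 M) and fewer genes at FPKM of at least 1 (5680 against 7002) at hatching, but nearly equal reads in the late stage (10.4 against 10.0 M). Across all 52 late cells TFAP2C had a Spearman rho of 0.70 with NANOG and -0.73 with SOX17.

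GATA3 was found more often in NANOG-low SOX17+ cells, among fewer cells, though in the late stage not in the cells with lower title numbers. In NANOG-high SOX17+ cells it was detected in 0 of 7 late cells (maximum 0.702 FPKM) and 0 of 2 hatching cells. In late NANOG-high SOX17- cells it was detected in 2 of 24 cells (maximum 13.5 FPKM), and in NANOG-low SOX17+ cells in 9 of 21 (42.9%, 21.8 to 65.98%, maximum 160 FPKM). Without the cell that stands apart, 8 of 20 were positive, with a maximum of 52.6 FPKM. Among late cells with title numbers of at most 22, it was detected in 2 of 9 NANOG-high SOX17- and 1 of 9 NANOG-low SOX17+ cells (difference in mean log2 level +0.27), and among those with higher numbers in 0 of 13 and 7 of 9 (+3.38). The 1 of 9 is the cell that stands apart, and without it the difference of +0.27 turns negative. In hatching cells GATA3 was detected in 0 of 17 NANOG-high SOX17- cells, none above 0.0895 FPKM (upper limit 19.5%), and in 5 of 7 NANOG-low SOX17+ cells. Those 7 cells had 89.4, 79.8, 47.1, 33.3, 32.6, 0 and 0 FPKM. The groups overlapped only through the 2 cells at 0, which had the fewest recovered reads of the 7 (5.10 and 6.29 M). The summed level of the 11 trophectoderm markers ranged from 1464 to 30880 FPKM in late NANOG-low SOX17+ and from 1601 to 8479 FPKM in NANOG-high SOX17- cells, and at hatching from 2826 to 6447 and from 844 to 8463 FPKM. Their part in the GATA3 levels was not tested. No hatching cell held GATA3 and TFAP2C together, whereas 17 of 44 early, 11 of 39 middle and 3 of 52 late cells did. The hatching count restates the divisions above, as all 5 cells with GATA3 were NANOG-low SOX17+, where TFAP2C was detected in 0 of 7.

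CDX2 crossed the division. Late NANOG-high SOX17- cells held it in 10 of 24 (4.66 to 69.7 FPKM in those cells, at most 0.595 in the others), and late NANOG-low SOX17+ cells in 13 of 21 (9.24 to 309 FPKM, at most 0.351 in the others), or 12 of 20 with a maximum of 160 FPKM without the cell that stands apart. The 7 late NANOG-high SOX17+ cells all had it, at 12.7 to 188 FPKM with a median of 40.7. At hatching it was detected in 7 of 17 NANOG-high SOX17- cells and in 5 of 7 NANOG-low SOX17+ cells. The latter 7 had 434, 230, 191, 83.8, 32.7, 0.195 and 0.158 FPKM. The 5 cells with CDX2 were the same 5 that had GATA3, and the 2 cells without were the 2 of fewest reads. Of the 8 late cells with both CDX2 and GATA3, all 8 also had SOX17, 1 of them the cell that stands apart. Cells with many CDX2 reads and cells with few were thus found within both the NANOG-high SOX17- and the NANOG-low SOX17+ range, and all ranges overlapped.

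Expressed as differences, late NANOG-low SOX17+ minus NANOG-high SOX17- cells had 2 of 7 factors higher (background 8.97%) and 2 lower (background 9.83%). GATA3 differed by +1.87, CDX2 by +1.27, TFAP2C by -3.80 and DLX3 by -1.10. Only the TFAP2C difference exceeded the SD of both ranges (1.84 and 1.09). DLX3 was detected in 7 of 24 against 1 of 21 cells, and in 0 of 20 without the cell that stands apart. Its difference was -2.32 in the lower and -0.49 in the higher title numbers, and that of CDX2 +2.04 and +1.11. At hatching, GATA3 differed by +4.06 and CDX2 by +2.76 (background 14.2% higher), and TFAP2C by -5.12 (background 34.2% lower). GATA3 and TFAP2C exceeded the larger SD of their ranges (2.84 and 1.58), and CDX2 did not (3.56). Late NANOG-high SOX17+ minus NANOG-high SOX17- cells gave CDX2 at +3.37 (background 9.95% higher) and TFAP2C at -2.64 (background 6.87% lower), from 7 and 24 cells. In the middle stage the same contrast, from 10 and 28 cells, had CDX2 at -1.48 and TFAP2C at -1.91 (background 3.02% lower), and 0 factors higher (background 2.25%). Title numbers were not alike in these ranges. Within the higher numbers the CDX2 difference was +1.92 in late cells (7 and 13 cells) and +0.22 in middle cells (5 and 7 cells), and within the lower numbers it was -2.53 in middle cells (4 and 20 cells).

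**Figure D4:**
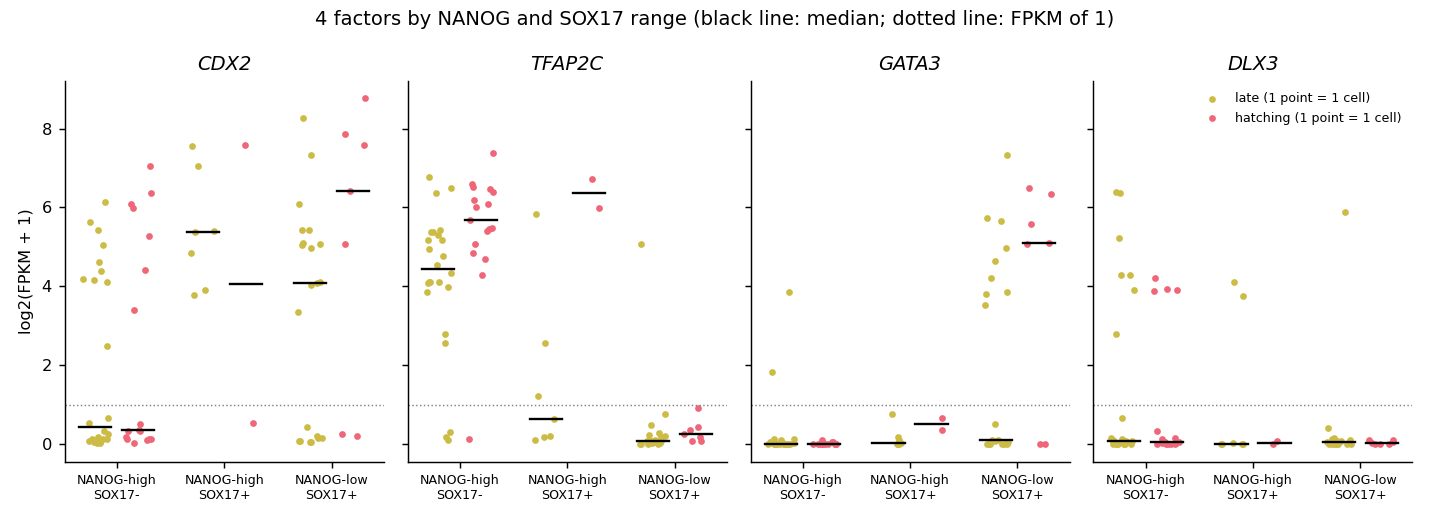
CDX2, TFAP2C, GATA3 and DLX3 as log2(FPKM + 1) in the 3 ranges of NANOG and SOX17 of late and hatching cells; each point is 1 cell, black lines are medians and the dotted line is an FPKM of 1. TFAP2C is above the line in 21 of 24 and 16 of 17 NANOG-high SOX17- cells and in 1 of 21 and 0 of 7 NANOG-low SOX17+ cells, while CDX2 has cells above and below the line in both.

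Late and hatching cells were also compared within 1 range of NANOG and SOX17. In NANOG-high SOX17- cells TFAP2C went from 4.18 ± 1.84 to 5.45 ± 1.58 in mean log2 level and was the only 1 of 7 higher by over 1 unit (background 9.05%), with 0 lower (background 7.28%). In NANOG-low SOX17+ cells, GATA3 went from 2.13 ± 2.55 to 4.08 ± 2.84 and CDX2 from 3.31 ± 2.75 to 5.16 ± 3.56 (background 11.5% higher), with 0 lower (background 29.5%). Each of these 3 differences was smaller than the larger SD. All 7 hatching cells of that range have lower title numbers, and within the lower numbers GATA3 differed by +3.18 and CDX2 by +2.76 (7 and 9 cells). Those 9 late cells include the cell that stands apart. The 9 late cells of the range with higher numbers had means of 3.41 for GATA3 and 4.61 for CDX2, nearer the hatching means of 4.08 and 5.16. TFAP2C in NANOG-high SOX17- cells differed by +1.65 within the lower (3 and 9 cells) and +1.19 within the higher numbers (14 and 13 cells). DLX3 in the same range differed by -2.95 within the lower numbers (3 and 9 cells) but by +0.61 within the higher numbers (14 and 13 cells). The remaining factors were rare in both stages. GATA2 in late cells was detected in 5 of 21 NANOG-low SOX17+ (4 of 20 without the cell that stands apart) and 2 of 24 NANOG-high SOX17- cells. TFAP2A was detected in 2 of 21 (1 of 20 without that cell) and 7 of 24.

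The early and middle cells outside the main NANOG-high SOX17- range were few. In early cells the largest Spearman rho of a factor with NANOG or SOX17 was 0.33 (DLX3 with SOX17, 44 cells), and all 6 NANOG-high SOX17+ cells had CDX2, TFAP2C and DLX3. The 3 early NANOG-low cells also held TFAP2C and DLX3, and 1 of them had the highest levels of the series for both, at 271 and 397 FPKM, with CDX2 at 0.202 FPKM. The single middle NANOG-low cell, at 57.1 FPKM of NANOG, held 6 of the 7 factors, among them TFAP2C at 106 FPKM and GATA2 at 52.7 FPKM. Among middle NANOG-high cells, DLX3 was detected in 7 of 10 SOX17+ and 18 of 28 SOX17- cells, and TFAP2C in 4 of 10 and 24 of 28.

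Cells were also divided by the number in their titles, with lower numbers being at most 28 in early, 29 in middle, 22 in late and 18 in hatching cells. The division was taken from an earlier analysis of these data, and the early numbers run on across it without a gap. What the numbers stand for is not given in the labels, and the few middle and late cells titled HS are left out here. CDX2 was detected in 5 of 18 late cells with lower numbers (at most 22) and in 24 of 29 with higher numbers, with median recovered reads of 10.2 and 11.1 M. Among NANOG-high SOX17- late cells the counts were 1 of 9 and 9 of 13. From middle to late cells CDX2 differed by -3.65 within the lower and by +0.26 within the higher numbers, so the lower CDX2 of the late stage did not hold in the higher numbers. All 7 late NANOG-high SOX17+ cells have higher numbers. In the middle stage GATA3 was detected in 13 of 25 lower-numbered and 0 of 12 higher-numbered cells, and HAND1 in 5 of 25 and 0 of 12.

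TFAP2C kept its division by NANOG and SOX17 within both number ranges of the late stage. It was detected in 8 of 9 NANOG-high SOX17- and 1 of 9 NANOG-low SOX17+ cells with lower numbers, and in 11 of 13 and 0 of 9 with higher numbers. The 1 of 9 is the cell that stands apart. All 14 hatching cells with higher numbers were NANOG-high SOX17-, and all 7 hatching NANOG-low SOX17+ cells have numbers of at most 18. Within those numbers TFAP2C was detected in 3 of 3 NANOG-high SOX17- and 0 of 7 NANOG-low SOX17+ cells, and GATA3 in 0 of 3 and 5 of 7. Among early cells, HAND1 was detected in 5 of 25 lower-numbered and 10 of 19 higher-numbered cells and GATA2 in 3 of 25 and 8 of 19, where the higher numbers also had more reads (median 14.04 against 8.54 M). The GATA2 step from early to middle cells was +1.69 in the lower and -0.18 in the higher numbers. DLX3 was lower at hatching than in early cells in both, by -4.47 and -2.97, and so was CDX2, by -1.09 and -3.29. HAND1 had mean log2 levels of 0.76 in early and 0.01 in hatching cells with lower numbers, a difference below 1 unit. With higher numbers its means were 2.39 and 0.33.

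**Figure D5:**
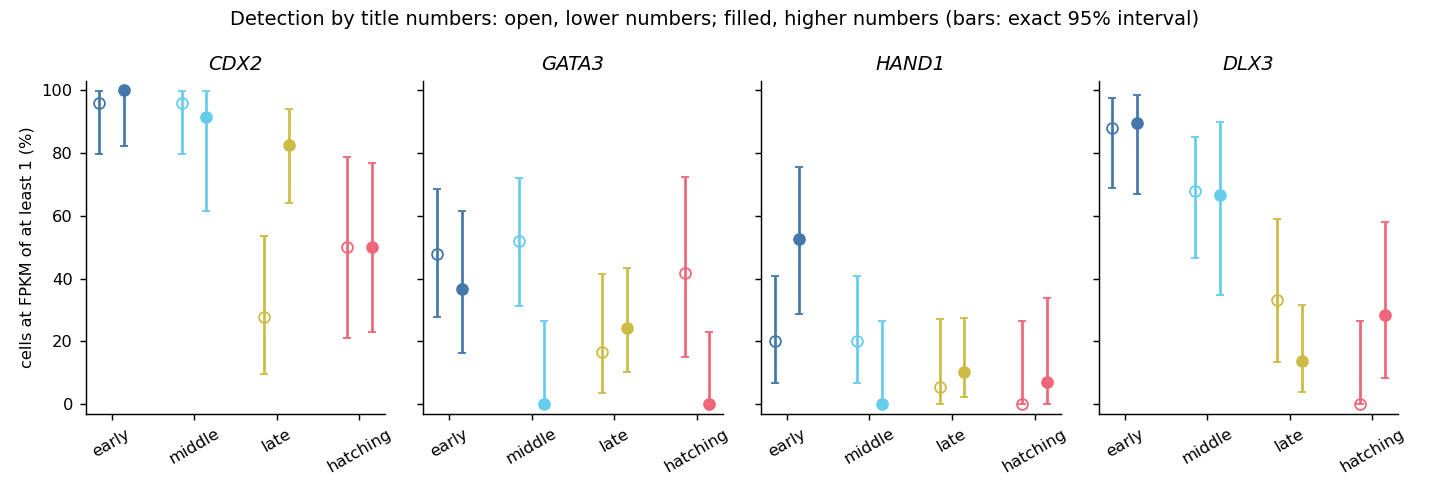
Detection at an FPKM of 1 or more, as a share of cells (vertical axis, %), for CDX2, GATA3, HAND1 and DLX3 by stage, in cells with lower (open) and higher (filled) title numbers; bars are exact 95% intervals that cover the counting of cells only. The open and filled late CDX2 points are 5 of 18 and 24 of 29 cells, and the middle GATA3 points 13 of 25 and 0 of 12.

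Other trophectoderm genes differed in both directions over the same stages. Of 24 further trophectoderm regulators 23 have a row and 17 passed the filter, and from early to hatching cells 2 were higher (background 11.3%) and 6 lower (background 16.2%), with a median of -0.64 against -0.12 over all genes. The share higher was near the background. GCM1, which drives syncytiotrophoblast formation, went from 4.22 ± 2.16 to 0.54 ± 1.01 (difference -3.68), and ELF3, an epithelial ETS factor, differed by -2.67. ID2, an inhibitor of basic helix-loop-helix factors, was higher by 2.36. From middle to late cells, the step at which CDX2, DLX3 and GATA2 were lower, 5 of 17 were lower (background 5.82%), GCM1 among them (-2.95), and 0 higher (background 3.95%). ELF5, a factor of later trophoblast, was at 0 in all cells. Of 22 trophectoderm structural and transport genes that passed, 6 were higher and 8 lower at hatching (median -0.13), against the same 11.3% and 16.2%. The tight-junction gene CLDN4 (-8.28) and the water channel AQP3 (-6.15) were lower, as CDX2 and DLX3 were, but the keratins KRT19 (+6.78) and KRT7 (+4.39) were higher.

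DLX4, a paralogue of DLX3, was also rare at hatching, being detected in 31 of 44 early, 34 of 39 middle, 19 of 52 late and 2 of 26 hatching cells. Like TFAP2C it lay on the NANOG side in the late stage, in 75% of NANOG-high SOX17- and 0% of NANOG-low SOX17+ cells. CDX1, the relative of CDX2, was less frequent (23 of 44 early and 10 of 26 hatching cells). GATA4, the endoderm GATA factor, was detected in 100% of late NANOG-low SOX17+ cells against 16.7% of NANOG-high SOX17- cells. GATA1, HAND2 and CDX4 were at 0 in all cells.

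The genes most like each factor were taken by Pearson's r of log2 levels after each stage's mean was removed, over 161 cells, for the 5 factors found in at least 20% of cells. TFAP2C had the closest companions, ZSCAN10 (r = 0.65), FGF13 (0.65) and ACBD6 (0.61), with PDGFRA at the other end (-0.67). In late cells alone r with ZSCAN10 was 0.82, in early cells 0.23. GATA3 was most like LRP2 (0.63), TET2 (0.57) and RUNDC3B (0.56), and least like PITRM1 (-0.56); its r with LRP2 was 0.83 in hatching and 0.00016 in early cells. For CDX2 the closest were weaker, H2AFY (0.43), NECAP2 (0.40) and GTF3C6 (0.39), and GTF3C6 was the steadiest of these, with r between 0.35 and 0.48 at every stage. GATA2 (SLC15A2, 0.35) and DLX3 (SLC12A3, 0.32) had no closer companion. These are descriptions over cells that share stages, title-number ranges and depth.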

How the data were processed

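Per the labels' protocols, the cDNA of each cell was PCR-amplified, and paired ends of 150 bp were read. TopHat2 2.1.0, HTSeq, DESeq2 and FastQC appear in the submitters' processing notes without their roles. Genome build and strandedness are not given in the sources used; reads of a gene and of an antisense partner cannot be told apart here. The authors deposited 1 table of FPKM with 16049 genes and 161 cells; each column bears the title of 1 cell, and there were 0 pairs of identical cells.

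The 7 members, the gene lists and the cuts were chosen with earlier results of these data known. Levels were computed as log2(FPKM + 1), detection as FPKM of at least 1 and intervals as exact Clopper-Pearson 95%, which cover the counting of cells only. Cells are not replicates, so no test was made. Background shares use the 9781 genes with a mean FPKM of at least 1. Genes named outside the 7 members are the 3 most and 1 least like each factor, up to 4 of each list by size of difference, and genes at 0; the cell that stands apart was chosen after its values were seen.

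Whole reads were recovered for 13836 of 13857 genes above 0 in at least 2 cells, counting a value as whole when it missed by at most 2e-06 of itself or by 0.001 (never over 0.1). These genes hold 83.1% to 93.2% of a cell's FPKM, a lower bound on depth; reads carry no molecular identifiers. No count test was run on them, for want of replicates. GATA6 was not analysed here, though it was on the list of 14 primitive endoderm markers, of which 13 have a row. Stage differences, likeness and read recovery were tested on simulated data. Python 3.11.15, pandas 2.3.3, numpy 2.4.6, scipy 1.17.1 and matplotlib 3.10.9 were used. The alternatives were another pseudocount, scaling, detection limit, average or cut, 1 title-number range at a time, and leaving out cells titled HS or the cell that stands apart.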

Additional observations from a re-analysis of the deposited data

How the results depend on the processing

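No paired analysis was possible because each stage is 1 sample and replicate numbers only name cells. For the comparisons, 372 recomputed values stayed within the spread or within 1.5 times the count, and 40 moved. The spread was the SD between cells, so a difference could fall below 1 unit and still count as staying. GATA3 in late NANOG-low SOX17+ minus NANOG-high SOX17- cells did so in the lower title numbers. 1 value reversed, CDX2 in middle NANOG-high SOX17+ minus NANOG-high SOX17- cells (0.22 in the higher title numbers). 2 stage steps of single genes reversed too, both in the higher title numbers: GATA2 in middle minus early cells (-0.18) and CDX2 in late minus middle cells (0.26). The alternatives for hatching minus late cells within 1 range were chosen after seeing the data. Among them DLX3 moved in NANOG-high SOX17- cells (-2.95 in the lower title numbers, against +0.61 in the higher ones).

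With a pseudocount of 0.1, differences were larger: DLX3 in hatching minus early cells -5.85, TFAP2C between NANOG-low SOX17+ and NANOG-high SOX17- cells -5.95 (late) and -6.94 (hatching), and GATA3 6.27 (hatching). With a pseudocount of 10 the same 4 were -1.65, -1.56, -2.51 and 1.88. With 0.1, members higher from early to middle were 2, and lower from middle to late 5; other trophectoderm regulators were 6 higher at hatching than in early cells, and 3 higher and 8 lower from middle to late; effectors were 4 higher from middle to late. With 10, members were 0 higher and 0 lower from early to middle, 0 lower from middle to late and 1 lower from early to hatching; regulators were 0 higher and 3 lower from early to hatching and 2 lower from middle to late; effectors were 2 higher and 5 lower from early to hatching and 1 higher from middle to late.

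Members higher from early to middle were 0 with median-of-ratios scaling, with medians over cells, in the higher title numbers and without HS titles. Members lower over that step were 1 with the log2 of mean FPKM and in the lower title numbers, and 5 in the higher ones. From late to hatching, the lower title numbers gave 2 higher (CDX2 and GATA3) and 1 lower (DLX3), and the higher ones 2 lower (CDX2 and GATA3). For the same step medians over cells gave 1 lower and the log2 of mean FPKM 2 lower. Counting any value above 0 as detected, members per cell were 5.23, 5.36, 4.25 and 4.12 from early to hatching.

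Counting any value above 0 moved 25 of the detection shares by stage and left 3, and an FPKM of at least 5 moved 3 and left 25. Cells counted as detected hold at least 19 reads (HAND1) to 51 reads (TFAP2A).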
